A study of Rattus norvegicus with 14 samples.

Results

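Tat, Tdo2, Hpd, Sds, Aadat and Abat encode liver enzymes that break down aromatic and other amino acids. They were taken by their gene symbol in the platform annotation and make up 6 of the 4736 genes with a single symbol on the array. They have 12 probe sets: 3 each for Hpd and Sds, 2 each for Aadat and Abat, and 1 each for Tat and Tdo2. All 12 passed the filter on dim signals. The arrays held RNA from the left lateral lobe of rat liver, sampled at necropsy, of animals on 3 diets: magnesium-deficient (4 arrays, numbered 11 to 14), magnesium-supplemented (5 arrays, 1 to 5) and standard (5 arrays, 6 to 10). The labels used here give no magnesium content, duration, strain, age or sex, nor whether the arrays of a diet are different animals. P-values therefore measure only the spread between these samples. The tissue is bulk liver, in which fewer cells of a type and less RNA per cell cannot be told apart.

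Liver takes the nitrogen off surplus amino acids and passes the carbon on to glucose, ketone bodies or energy. Tat transfers the amino group of tyrosine in the first step of its breakdown, and Hpd turns the resulting 4-hydroxyphenylpyruvate into homogentisate. Tdo2 opens the indole ring of tryptophan in the first step of the kynurenine pathway, and Aadat transaminates kynurenine and the lysine product 2-aminoadipate. Sds deaminates serine to pyruvate, and Abat transaminates the neurotransmitter GABA and beta-alanine. In rat liver, Tat and Tdo2 are textbook examples of glucocorticoid-induced genes, and Sds is known for wide swings with dietary protein, fasting and glucagon.

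The 300 bases around the RefSeq transcription starts of Tat and Tdo2 are shown because these genes had the highest Pearson correlation of any pair among the 6. They come from RefSeq promoters of rat build GRCr8, with 250 bases before and 50 after the start. Tat lies at chr19:54856354-54856653 on the plus strand and Tdo2 at chr2:169585537-169585836 on the minus strand. Capitals mark CCAAT on either strand (ATTGG when on the other one) and TATAAA.
Tat: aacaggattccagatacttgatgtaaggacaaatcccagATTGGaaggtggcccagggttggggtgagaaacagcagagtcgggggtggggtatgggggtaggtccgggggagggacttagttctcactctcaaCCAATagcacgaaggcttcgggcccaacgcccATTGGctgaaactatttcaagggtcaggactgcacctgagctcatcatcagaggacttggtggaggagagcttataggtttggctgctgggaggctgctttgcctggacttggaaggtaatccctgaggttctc
Tdo2: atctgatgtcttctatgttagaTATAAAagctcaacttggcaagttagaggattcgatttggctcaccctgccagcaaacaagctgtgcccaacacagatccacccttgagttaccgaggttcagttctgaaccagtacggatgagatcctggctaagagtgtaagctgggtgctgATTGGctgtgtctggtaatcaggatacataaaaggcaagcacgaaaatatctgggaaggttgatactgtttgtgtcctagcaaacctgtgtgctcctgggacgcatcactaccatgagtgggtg
The Tat window held CCAAT 3 times, with first bases 211, 116 and 84 bases before the start. The Tdo2 window held it once, 74 bases before the start, and TATAAA once, 228 bases before the start. Of 33469 promoter windows of this length, 37.5% held CCAAT and 14.2% TATAAA on at least 1 strand. Hpd had no match to CCAAT. Aadat had 1, 5 bases before the start in the promoter table, whose window (chr16:34555131-34555430, minus strand) lies inside the annotated gene rather than at its end. The glucocorticoid receptor half-site TGTTCT and the cyclic AMP response half-site TGACG, searched on both strands, matched none of the 4 windows, and 20.7% and 21.2% of all windows held them. A match is a description of letters and not a binding site. The windows reach only 250 bases before the start, and sequence farther out was not searched. Promoters of Sds and Abat are not shown. The annotated genes lie at chr19:54856604-54867168 (Tat), chr2:169567656-169585586 (Tdo2), chr12:39042246-39053596 (Hpd), chr12:41743796-41751108 (Sds), chr16:34520236-34566388 (Aadat) and chr10:7503351-7599474 (Abat).

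Signals are in arbitrary units after quantile normalisation between arrays, and differences are on the log2 scale. The hepatocyte markers Alb, Apoa1, Ttr, Serpina1, Cyp2e1 and Cps1 all passed the filter, at 2151 to 9258 units over the 14 arrays. Of 31 markers of other cells, 21 were on the array and 13 passed. At an unadjusted limma p under 0.05, 0 of these 13 differed between deficient and standard, 1 was higher for supplemented against standard, and 3 were lower for deficient against supplemented. Of all probe sets past the filter, 3.04%, 8.88% and 13.0% were under this threshold in these comparisons, in that order. Markers of pancreas and fat were mixed. Prss1 and Fabp4 were at the floor on every array, Cpb1 read 3.93 to 9.14 units and Clps 9.24 to 35.7 units. Ins2 read 84.0 to 408 units, Amy2a3 121 to 269 units and Lep 177 to 792 units. All 3 tested pancreas markers averaged lower on the deficient diet than on each other diet. The 3 markers under this threshold for deficient against supplemented were 1 each of Kupffer cell and macrophage, pancreas and fat. A measure of RNA quality differed between diets at an unadjusted p only. The log2 3'/5' ratio of the Gapdh control probe sets, which grows as RNA is degraded or incompletely copied, was 1.84 ± 0.65 (SD, n = 4) on the deficient, 0.71 ± 0.49 (SD, n = 5) on the supplemented and 1.64 ± 0.61 (SD, n = 5) on the standard diet. The supplemented minus standard difference was -0.93 (exact permutation p = 0.0159) and the deficient minus supplemented difference 1.13 (exact permutation p = 0.0317), with an adjusted p of 0.0952 for both over 6 comparisons.

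None of the 6 genes passed the test in any comparison. Limma called 0 of the 12 probe sets between the deficient and the standard diet, where it called 0% of the 5133 tested, and 0 between the supplemented and the standard diet, where it called 0%. Between the deficient and the supplemented diet it again called 0 of the 12, against 0.0195% of all tested. A call is a Benjamini-Hochberg adjusted p under 0.05. At an unadjusted p under 0.05 the counts among the 6 genes, each taken by its brightest probe set, were 0 for deficient against standard (3.04% of all probe sets), 0 for supplemented against standard (8.88%) and 1 for deficient against supplemented (13.0%). The arrays of each pair of diets overlapped for all 12 probe sets, while 1.44%, 1.81% and 4.95% of all tested probe sets did not overlap in these comparisons, in that order. In each comparison 3 of the 6 genes were higher and 3 lower by their brightest probe set. Over all tested probe sets 50.1% were higher and 49.9% lower for deficient minus standard, 47.8% and 52.2% for supplemented minus standard, and 52.5% and 47.5% for deficient minus supplemented. The median size of the log2 difference of the 6 genes was 0.16, 0.25 and 0.33, against 0.17, 0.21 and 0.26 over all tested probe sets. The moderated F-test over the 3 diets gave adjusted p-values from 0.617 to 0.991 for the 12 probe sets, and it called 0.0195% of all tested. The comparisons share arrays, so they are not independent of each other.

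**Figure D1:**
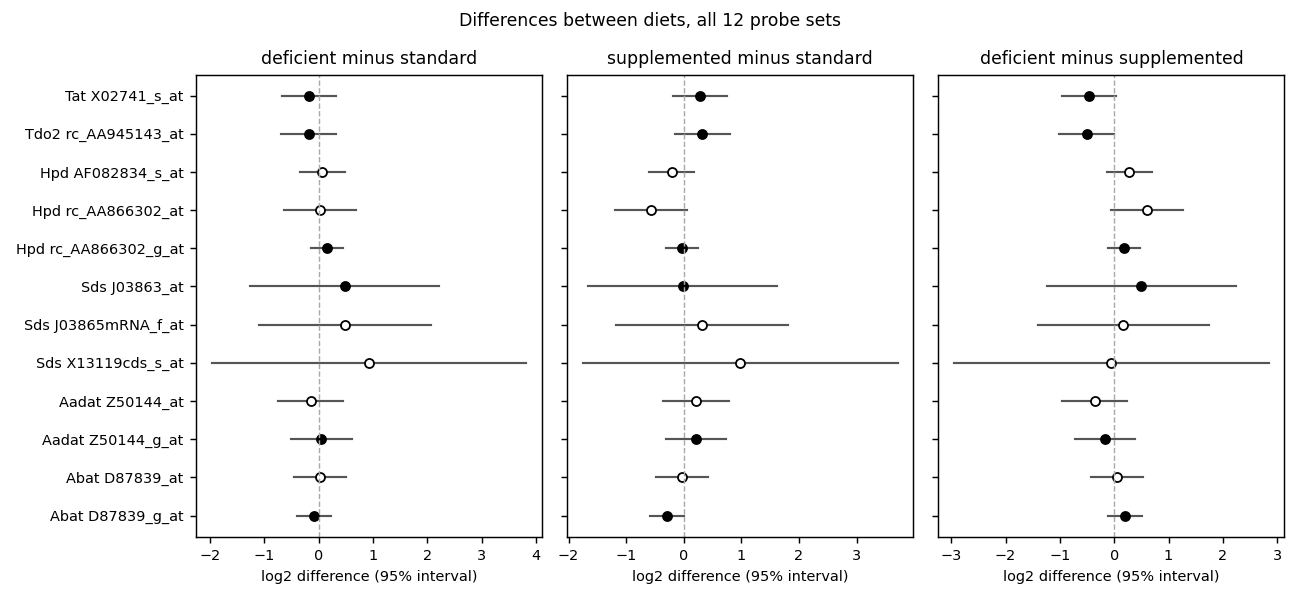
Log2 differences between diets (x axis) for all 12 probe sets (y axis) in the 3 comparisons, with 95% intervals from limma as lines. Filled points mark the brightest probe set of a gene and open points its others. The intervals of the 3 Sds probe sets are the widest, and that of Tdo2 for deficient minus supplemented ends just below 0.

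Tat, the enzyme that starts tyrosine breakdown, lay lowest on the deficient and highest on the supplemented diet, but within the spread between arrays. Its signal was 1348, 1117, 1488 and 1200.3 units on deficient arrays 11 to 14. On supplemented arrays 1 to 5 it was 1443, 1821, 1700.4, 1162 and 3281 units, and on standard arrays 6 to 10 it was 1531, 1755, 1490.3, 1259 and 1263 units. Supplemented array 5 stood highest of all 14 and the other supplemented arrays lay within or close to the range of the standard ones. The log2 mean was 10.32 ± 0.18 (SD, n = 4) on the deficient, 10.78 ± 0.56 (SD, n = 5) on the supplemented and 10.50 ± 0.20 (SD, n = 5) on the standard diet. By limma the deficient minus supplemented difference was -0.46 ± 0.23 (SE; adjusted p = 0.417), with a 95% interval from -0.95 to 0.032, or 1.38-fold lower. The deficient minus standard difference was -0.18 ± 0.23 (adjusted p = 0.999) and the supplemented minus standard difference 0.28 ± 0.22 (adjusted p = 0.713). Neighbours in this order therefore did not differ beyond their spread. Supplemented array 5 decided much of the supplemented mean: without it the supplemented minus standard difference was 0.058 and the deficient minus supplemented difference -0.24.

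Tdo2, which commits tryptophan to the kynurenine pathway, had the same order of diets. It read 752, 762, 932 and 1355 units on the deficient arrays. The supplemented arrays read 1317, 1717, 1375, 785 and 1601 units and the standard arrays 1187, 1266, 1191, 868 and 822 units. Deficient arrays 11 and 12 were the lowest of all, while deficient array 14 lay above every standard array and supplemented array 4 lay among the low deficient arrays. The log2 mean was 9.85 ± 0.40 (SD, n = 4) on the deficient, 10.36 ± 0.44 (SD, n = 5) on the supplemented and 10.04 ± 0.29 (SD, n = 5) on the standard diet. The deficient minus supplemented difference of -0.51 ± 0.24 (SE), 1.42-fold lower, was the single difference among the 6 genes with an unadjusted limma p under 0.05 (adjusted p = 0.383). Its 95% interval ran from -1.02 to -0.00028. The deficient minus standard difference was -0.19 ± 0.24 (adjusted p = 0.999) and the supplemented minus standard difference 0.32 ± 0.23 (adjusted p = 0.680). With 1 array left out, deficient minus standard lay between -0.37, without deficient array 14, and -0.088, without deficient array 11, and supplemented minus standard reached 0.51 without supplemented array 4. With the Gapdh ratio as a covariate the deficient minus supplemented difference was -0.18 for Tdo2 and -0.20 for Tat, neither called by limma.

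**Figure D2:**
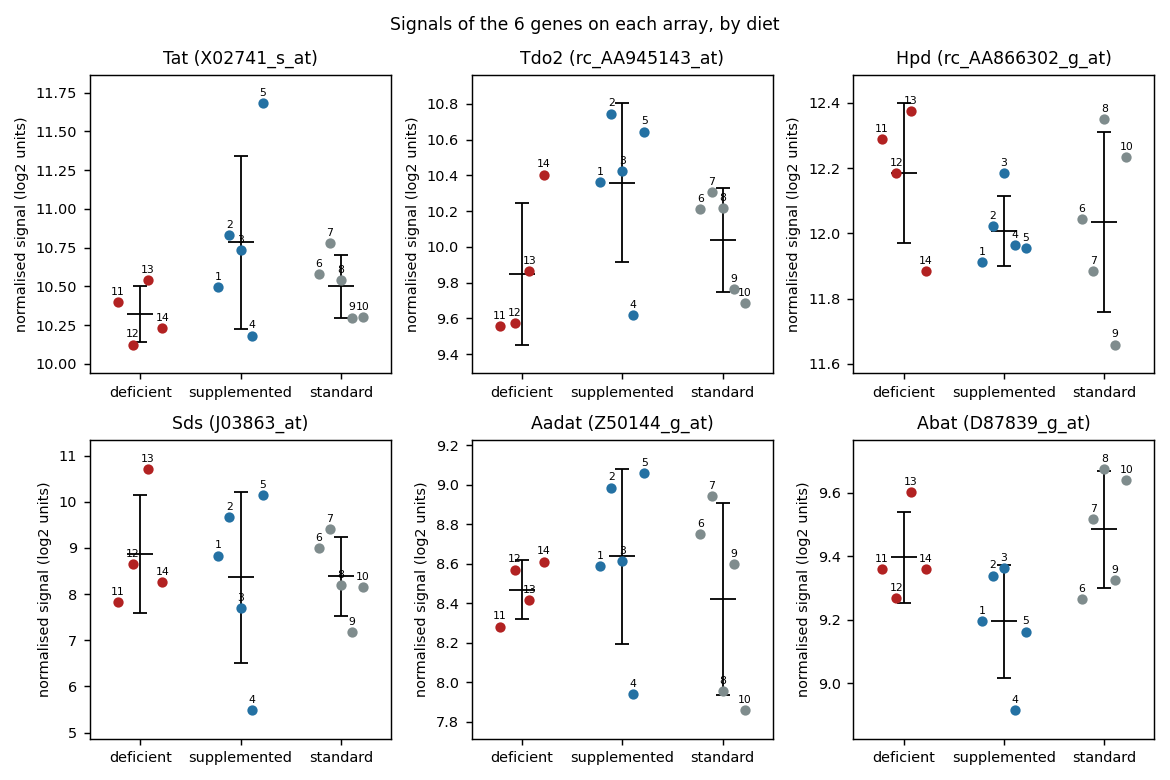
Normalised signal (y axis, log2 units) of the brightest probe set of each of the 6 genes on the 14 arrays, grouped by diet (x axis). Points are arrays labelled by number, and bars are the mean ± SD of a diet. The diets overlap in every panel, and Sds spans the widest range.

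Hpd, which acts after Tat on the tyrosine path, had bright and nearly level signals. Its brightest probe set, rc_AA866302_g_at, read 5008, 4657, 5316 and 3780.1 units on the deficient arrays. It read 3852, 4160.0, 4657, 3993 and 3971 units on the supplemented arrays and 4223, 3780.1, 5219.8, 3234 and 4818 units on the standard arrays. The highest array exceeded the lowest by 1.64-fold, the smallest range of any of the 12 probe sets, and no diet stood apart. The log2 mean was 12.18 ± 0.21 (SD, n = 4) on the deficient, 12.01 ± 0.11 (SD, n = 5) on the supplemented and 12.03 ± 0.28 (SD, n = 5) on the standard diet. Limma's differences were 0.15 ± 0.14 (SE; adjusted p = 0.999) for deficient minus standard, -0.03 ± 0.13 (adjusted p = 0.970) for supplemented minus standard and 0.18 ± 0.14 (adjusted p = 0.582) for deficient minus supplemented. The 95% intervals, -0.14 to 0.44, -0.30 to 0.25 and -0.12 to 0.47, were among the narrowest of the 12 probe sets.

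The other probe sets of Hpd gave the same order for the supplemented diet, as the lowest of the 3, with wider errors. AF082834_s_at read 3345, 4054, 4160.0 and 3676 units on the deficient arrays, 3589.7, 3900.2, 3971, 2982 and 1847 units on the supplemented arrays, and 3632, 3726, 4467, 2907 and 3613 units on the standard arrays. Supplemented array 5 was its lowest array. The dim probe set rc_AA866302_at read 69.9, 71.0, 160.2 and 64.5 units on the deficient arrays, 55.4, 76.3, 72.1, 39.0 and 45.7 units on the supplemented arrays, and 81.2, 99.97, 94.4, 48.2 and 107 units on the standard arrays. Deficient array 13 was far above the other deficient arrays and above every other array. For this dim probe set the supplemented minus standard difference was -0.57 ± 0.29 (SE; limma adjusted p = 0.571) and the deficient minus supplemented difference 0.60 ± 0.31 (adjusted p = 0.422). Over the 14 arrays the 3 Hpd probe sets correlated pairwise at r = 0.66, 0.48 and 0.65.

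Aadat, the kynurenine and aminoadipate aminotransferase, did not differ between diets beyond its error. Probe set Z50144_g_at read 311, 380.4, 341 and 391 units on the deficient arrays. It read 385, 507, 392, 246 and 534 units on the supplemented arrays and 431, 493, 248, 387 and 232 units on the standard arrays. The deficient arrays clustered in the middle of the wider ranges of the other diets, with supplemented array 5 highest and standard array 10 lowest. The log2 mean was 8.47 ± 0.15 (SD, n = 4) on the deficient, 8.64 ± 0.44 (SD, n = 5) on the supplemented and 8.42 ± 0.49 (SD, n = 5) on the standard diet. The limma differences were 0.05 ± 0.26 (SE; adjusted p = 0.999) for deficient minus standard, 0.22 ± 0.25 (adjusted p = 0.808) for supplemented minus standard and -0.17 ± 0.26 (adjusted p = 0.812) for deficient minus supplemented. The second probe set, Z50144_at, ranged over 117 to 175 units on the deficient, 98.2 to 267 units on the supplemented and 134 to 231 units on the standard arrays. It correlated with the first at r = 0.74 and put the supplemented diet highest too, 0.21 ± 0.26 above the standard diet (adjusted p = 0.833). With the Gapdh ratio as a covariate the deficient minus supplemented difference of Z50144_g_at turned to 0.31, again not called.

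Abat, the GABA transaminase, was lowest on the supplemented diet by its brighter probe set. That probe set, D87839_g_at, read 657, 616, 777 and 656 units on the deficient arrays. It read 586, 647, 658, 483 and 573 units on the supplemented arrays and 615, 732, 817, 641 and 797 units on the standard arrays. Supplemented arrays 4, 5 and 1 were the 3 lowest of all, while supplemented arrays 2 and 3 lay among the other diets. The log2 mean was 9.40 ± 0.14 (SD, n = 4) on the deficient, 9.19 ± 0.18 (SD, n = 5) on the supplemented and 9.48 ± 0.18 (SD, n = 5) on the standard diet. The supplemented minus standard difference was -0.29 ± 0.14 (SE), or 1.22-fold lower, with a 95% interval from -0.58 to 0.0012 (limma adjusted p = 0.547). The deficient diet differed from the standard diet by -0.09 ± 0.14 (adjusted p = 0.999) and from the supplemented diet by 0.20 ± 0.14 (adjusted p = 0.550). With the Gapdh ratio as a covariate the supplemented minus standard difference was -0.18, not called by limma.

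The 2 Abat probe sets disagreed. D87839_at read 364, 356, 170.2 and 232 units on the deficient arrays, 196, 284, 289, 303 and 234 units on the supplemented arrays, and 268, 265, 239, 298 and 247 units on the standard arrays. It gave differences of 0.03 ± 0.22 (SE), -0.03 ± 0.21 and 0.05 ± 0.22 for deficient minus standard, supplemented minus standard and deficient minus supplemented, and correlated with the brighter probe set at r = -0.32 over the 14 arrays. The order of diets seen with the brighter probe set therefore rests on that probe set alone. All correlations of Abat with other genes and with RNA quality given below also use only that probe set.

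Sds, the serine dehydratase, varied far more between arrays of 1 diet than between diets. Probe set J03863_at read 226, 401, 1681 and 308 units on the deficient arrays. It read 457, 815, 208, 45.0 and 1127 units on the supplemented arrays and 508, 681, 294, 145 and 284 units on the standard arrays. Deficient array 13 was the highest and supplemented array 4 the lowest, 37.4-fold apart, and the arrays of the 3 diets overlapped widely. The log2 mean was 8.86 ± 1.28 (SD, n = 4) on the deficient, 8.37 ± 1.85 (SD, n = 5) on the supplemented and 8.39 ± 0.86 (SD, n = 5) on the standard diet. Limma's differences were 0.48 ± 0.82 (SE; adjusted p = 0.999) for deficient minus standard, -0.02 ± 0.77 (adjusted p = 0.997) for supplemented minus standard and 0.50 ± 0.82 (adjusted p = 0.824) for deficient minus supplemented. Their 95% intervals, -1.27 to 2.22, -1.66 to 1.62 and -1.25 to 2.24, leave changes of 2-fold or more in either direction within reach. Without deficient array 13 the deficient minus standard difference was -0.14, and without supplemented array 4 the supplemented minus standard difference was 0.70.

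All 3 Sds probe sets showed this spread. J03865mRNA_f_at read 64.2, 77.1, 231 and 33.3 units on the deficient arrays, 75.4, 92.1, 51.5, 13.1 and 355 units on the supplemented arrays, and 28.8, 105, 51.2, 49.7 and 72.7 units on the standard arrays. X13119cds_s_at read 5.40, 7.90, 377 and 33.5 units on the deficient arrays, 34.1, 131, 5.01, 3.93 and 199 units on the supplemented arrays, and 16.0, 76.0, 9.06, 3.93 and 13.5 units on the standard arrays, where 3.93 units is the floor. Supplemented array 4 was lowest by every one of them, jointly with standard array 9 at the floor by the last. The highest array was 27.1-fold above the lowest by J03865mRNA_f_at and at least 96.0-fold above the floor by X13119cds_s_at. The pairwise correlations were r = 0.83 (J03863_at with J03865mRNA_f_at), 0.88 (J03863_at with X13119cds_s_at) and 0.75 (the other two). The within-diet SD, pooled over the 3 diets on the log2 scale, was 1.40 for J03863_at, 1.27 for J03865mRNA_f_at and 2.34 for X13119cds_s_at. Of the 5133 tested probe sets 0.935%, 1.42% and 0.0584% had a larger one, and the median was 0.39. The remaining 9 probe sets of the other genes had within-diet SDs from 0.17 (Abat D87839_g_at) to 0.49 (Hpd rc_AA866302_at). Leaving out 1 array at a time, the SD of J03863_at lay between 1.07, without supplemented array 4, and 1.47.

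**Figure D3:**
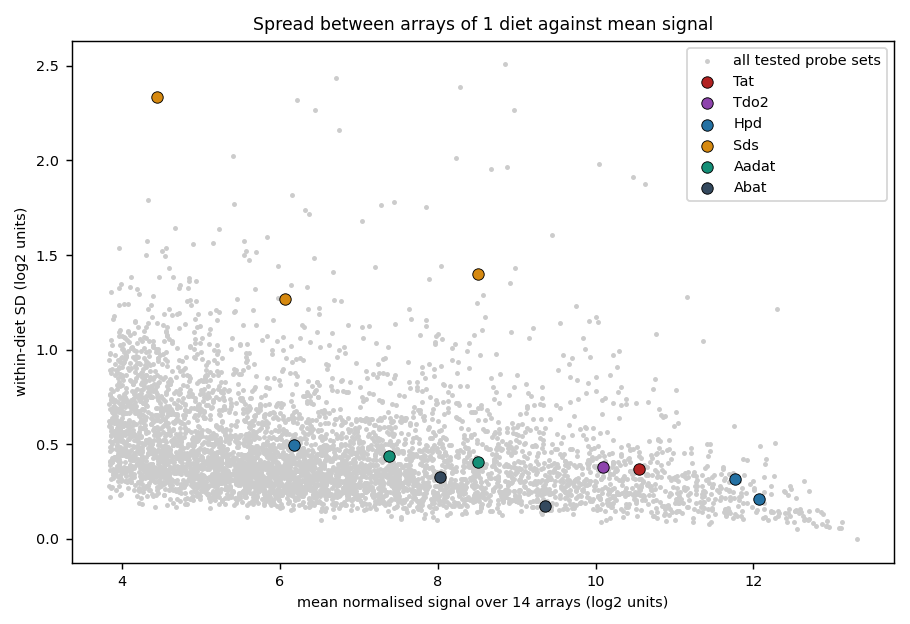
Within-diet SD (y axis, log2 units) against the mean signal over 14 arrays (x axis, log2 units) for all 5133 tested probe sets in grey and the 12 probe sets of the 6 genes in colour. The 3 Sds probe sets lie above nearly all others, with SDs of 1.27 to 2.34, and the rest between 0.17 and 0.49.

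By the brightest Sds probe set, the low Sds arrays included most of those with a high signal for Cyp2c12. In rats this cytochrome P450 follows the pattern of growth hormone secretion and is higher in female liver, whereas Cyp2c11 is the male-patterned form, and the labels used here give no sex. Both genes were chosen after their values were seen, and close relatives in the Cyp2c family may add to their signals. Cyp2c12 read 8.87 to 10.33 on the log2 scale on 5 arrays (deficient 11 and 13, supplemented 3 and 4, standard 9) and 4.05 to 7.26 on the other 9. Sds J03863_at read 226 and 1681 units on deficient arrays 11 and 13, 208 and 45.0 units on supplemented arrays 3 and 4, and 145 units on standard array 9. On the other 9 arrays it lay between 284 and 1127 units. By J03863_at these were the lowest Sds arrays apart from deficient array 13, the highest of all. J03865mRNA_f_at did not follow this order: standard array 6 (28.8 units) and deficient array 14 (33.3 units), both among the other 9, lay below all of the 5 but supplemented array 4, and supplemented array 5 was highest. X13119cds_s_at did, close to the floor: supplemented 4 and standard 9 (both 3.93 units), supplemented 3 (5.01) and deficient 11 (5.40) were lowest. By this probe set the other 9 arrays lay at 7.90 units or above, and deficient array 13 was highest at 377 units. Cyp2c11 was at 365 and 504 units on supplemented arrays 3 and 4 and at 857 units on standard array 9. On deficient arrays 11 and 13 it was at 1725 and 2048 units, and on the other 9 arrays at 2807 to 5352 units. The brightest of 2 probe sets stood for Cyp2c12 and the brightest of 3 for Cyp2c11. With the Cyp2c12 level as a covariate, added after the data were seen, the Sds differences were 0.81 ± 0.79 (SE) for deficient minus standard, 0.49 ± 0.78 for supplemented minus standard and 0.32 ± 0.77 for deficient minus supplemented, none of them called by limma. The cause of the Sds spread was not tested.

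**Figure D4:**
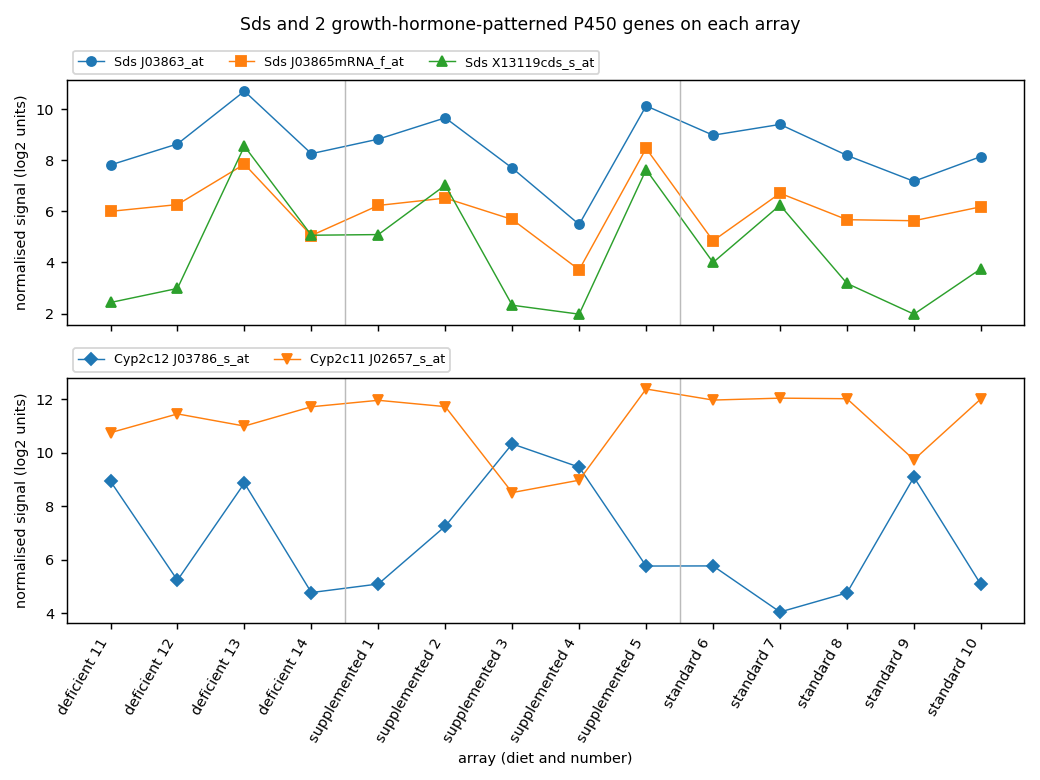
Normalised signal (y axis, log2 units) on the 14 arrays (x axis, by diet and number). The upper panel shows the 3 Sds probe sets, which correlate pairwise at r = 0.75 to 0.88 but do not rank every array alike. The lower panel shows Cyp2c12 and Cyp2c11. Supplemented array 4 is lowest for Sds, and deficient array 13 is high for both Sds and Cyp2c12.

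The 6 genes did not vary as 1 block. Over the 14 arrays and 15 pairs of genes, Tat and Tdo2 had the highest Pearson's r, at 0.70 (permutation p = 0.0015, adjusted 0.0225). Their Spearman's rho was 0.72 (permutation p = 0.00488, adjusted 0.0366), below that of Tdo2 and Aadat. Without deficient array 12 and supplemented array 5, the farthest from the median of Tat, r of Tat and Tdo2 was 0.69. With diet means subtracted, r was 0.59 (permutation p = 0.0788, adjusted 0.169), so this pair did not hold within diets past the threshold. Tdo2 and Aadat, which both handle kynurenine pathway steps, had r = 0.67 (permutation p = 0.00974, adjusted 0.0731), rho = 0.75 (permutation p = 0.00281, adjusted 0.0366), r = 0.75 without deficient arrays 11 and 12, and r = 0.67 within diets (permutation p = 0.0143, adjusted 0.114). Tat and Aadat had r = 0.61 (permutation p = 0.0146, adjusted 0.0731), rho = 0.68 (permutation p = 0.00914, adjusted 0.0457), r = 0.64 without deficient array 12 and supplemented array 5, and r = 0.60 within diets (permutation p = 0.0493, adjusted 0.123). Sds had r = 0.58 with Tat (adjusted permutation p = 0.123), 0.49 with Tdo2 (0.157) and 0.58 with Aadat (0.101). With diet means subtracted these were r = 0.75 with Tat, the highest of the 15 pairs, 0.67 with Tdo2 and 0.63 with Aadat (adjusted permutation p = 0.114, 0.122 and 0.114), none past the threshold. Hpd and Abat had r = 0.51 (adjusted permutation p = 0.149). Hpd and its pathway neighbour Tat had r = -0.08 (adjusted permutation p = 0.925).

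The RNA quality ratio moved with several of the 6 genes. Over the 14 arrays and 12 relations, the Gapdh 3'/5' ratio correlated with Tdo2 at r = -0.63 (permutation p = 0.0140, adjusted 0.0426) and rho = -0.74 (adjusted 0.0286), with Hpd at r = 0.62 (p = 0.0177, adjusted 0.0426 by permutation) and rho = 0.65 (adjusted 0.0425), and with Abat at r = 0.62 (permutation p = 0.0178, adjusted 0.0426) and rho = 0.53 (adjusted 0.123). Without deficient array 13 and standard array 10, which have the highest ratios, r was -0.61 for Tdo2, 0.45 for Hpd and 0.38 for Abat. Within diets r was -0.44 for Tdo2, 0.65 for Hpd and 0.41 for Abat (adjusted permutation p = 0.247, 0.111 and 0.247), so none passed there. Aadat had r = -0.59 (adjusted permutation p = 0.0508), rho = -0.66 (adjusted 0.0425) and r = -0.60 within diets (adjusted 0.111). Tat had r = -0.56 (adjusted permutation p = 0.0732) and rho = -0.40 (adjusted 0.214). Both had the same sign as Tdo2. Sds had r = 0.06 (adjusted permutation p = 0.834). The beta-actin ratio gave r = 0.74 for Hpd (permutation p = 0.0018, adjusted 0.0216), 0.70 without the same 2 arrays, and r = 0.62 for Abat (permutation p = 0.0174, adjusted 0.0426), 0.36 without them. Here rho was 0.72 for Hpd (adjusted permutation p = 0.0286) and 0.50 for Abat (adjusted 0.123). Within diets r was 0.74 for Hpd and 0.53 for Abat (adjusted permutation p = 0.111 and 0.1875), so neither passed there. By the brightest probe sets, Tat, Tdo2 and Aadat averaged highest and Hpd and Abat lowest on the supplemented diet, which had the lowest Gapdh ratio. With the Gapdh ratio as a covariate the supplemented minus standard difference turned to 0.19 for Hpd and -0.18 for Aadat. Over all tested probe sets, 132 were at an unadjusted limma p under 0.05 for supplemented minus standard with this covariate, against 456 without it. For deficient minus supplemented the counts were 113 and 669, and for deficient minus standard 141 and 156. The parts of diet and RNA quality in these differences, and in those of other genes below, were not tested and cannot be told apart here.

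**Figure D5:**
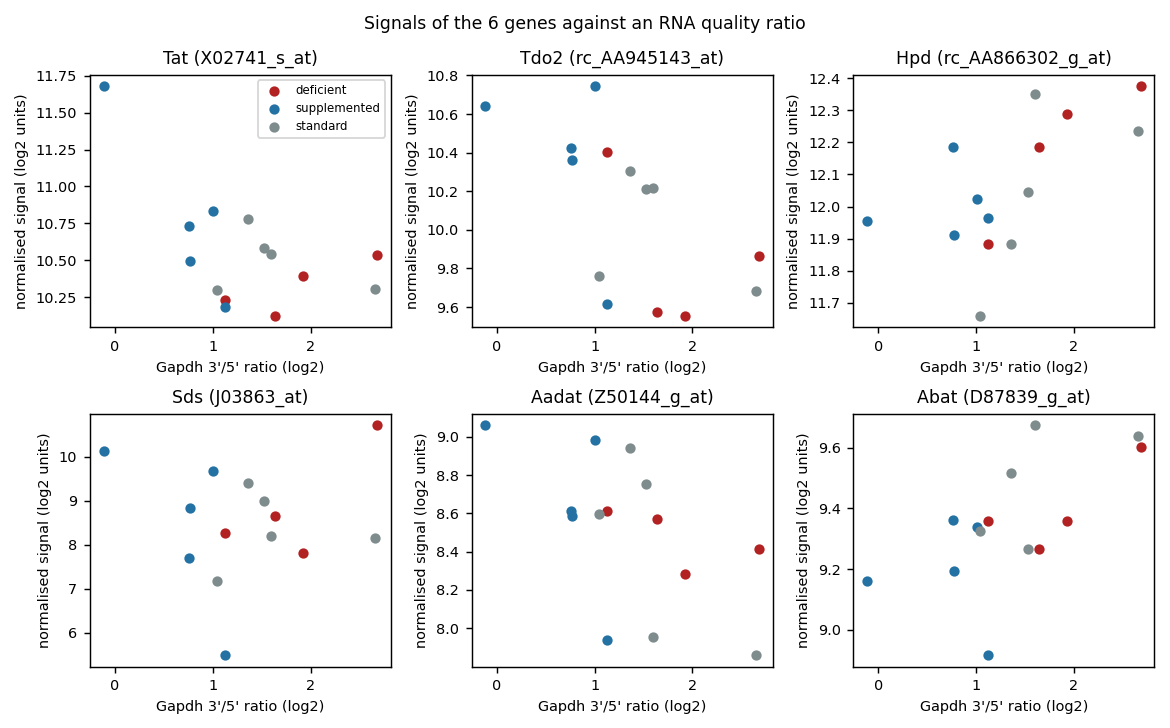
Normalised signal of each of the 6 genes (y axis, log2 units) against the log2 Gapdh 3'/5' ratio (x axis), 1 point an array, coloured by diet. Tat, Tdo2 and Aadat go down and Hpd and Abat go up with the ratio (r from -0.63 to 0.62), while Sds shows no trend (r = 0.06).

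Other genes of amino acid breakdown did not pass the test in any comparison. A list of 66 symbols, older names included, had 32 on the array and 27 past the filter. Limma called 0 of these in each comparison. Over all tested probe sets it called 0% for deficient minus standard, 0% for supplemented minus standard and 0.0195% for deficient minus supplemented. Higher and lower counts were 13 and 14 for deficient minus standard, 9 and 18 for supplemented minus standard, and 19 and 8 for deficient minus supplemented. The list medians were -0.03, -0.14 and 0.08 on the log2 scale, against 0.00059, -0.02 and 0.02 over all tested probe sets. At an unadjusted p under 0.05 there were 0, 2 and 3 of the 27 genes in these comparisons, against 3.04%, 8.88% and 13.0% of all tested probe sets. Dao, the D-amino acid oxidase, had a log2 mean of 8.25 ± 0.38 (SD, n = 5) on the supplemented and 9.14 ± 0.47 (SD, n = 5) on the standard diet, a difference of -0.90 ± 0.25 (SE; limma adjusted p = 0.474). Haao, which acts in the kynurenine pathway well after Tdo2, had a log2 mean of 11.09 ± 0.13 (SD, n = 5) on the supplemented and 11.54 ± 0.37 (SD, n = 5) on the standard diet, a difference of -0.45 ± 0.15 (SE; limma adjusted p = 0.492). For deficient minus supplemented both differences were positive, Haao by 0.42 ± 0.16 (SE; adjusted p = 0.332) and Dao by 0.58 ± 0.26 (adjusted p = 0.373). Aldh6a1, of valine breakdown, differed by -1.16 ± 0.46 (SE) there (adjusted p = 0.335). Pccb, a propionyl-CoA carboxylase subunit, differed by -0.34 ± 0.20 between supplemented and standard (adjusted p = 0.629). Between deficient and standard the smallest p-values belonged to the alanine aminotransferase Gpt at -0.56 ± 0.34 and the alanine-glyoxylate aminotransferase Agxt at 0.33 ± 0.21. The kynurenine hydroxylase Kmo followed at -0.24 ± 0.17 (limma adjusted p = 0.999 for all of these). Of the 6 tested Agxt probe sets, 5 had this direction. Haao and Dao correlated with the brighter probe set of Abat at r = 0.81 and 0.79 over the 14 arrays, and Fah, the last enzyme of tyrosine breakdown, with Hpd at r = 0.82. These 3 were picked after their correlations were seen and carry no test.

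Liver genes that carry or answer glucocorticoid, glucagon and insulin signals, the hormones known to act on several of these enzymes, were set beside them. Of 19 listed, 9 passed the filter, with 5 higher and 4 lower for deficient minus standard, 5 higher and 4 lower for supplemented minus standard, and 3 higher and 6 lower for deficient minus supplemented. Limma called 0 in each comparison, against 0%, 0% and 0.0195% of all tested probe sets in this order. Nr3c1, the glucocorticoid receptor, differed by -0.83 ± 0.26 (SE) between supplemented and standard (limma adjusted p = 0.474) and by 0.91 ± 0.27 between deficient and supplemented (adjusted p = 0.264). It was the only 1 of the 9 at an unadjusted p under 0.05 in either, against 8.88% and 13.0% of all tested probe sets. Its log2 mean was 5.83 ± 0.45 (SD, n = 4) on the deficient, 4.91 ± 0.36 (SD, n = 5) on the supplemented and 5.74 ± 0.45 (SD, n = 5) on the standard diet, by its brighter probe set. The dimmer probe set, M14053_at, gave -0.23 ± 0.21 and 0.18 ± 0.22 in the same comparisons. Nr3c1 was lowest on the diet where Tat, Tdo2 and Aadat averaged highest, which also had the lowest Gapdh ratio. The parts of diet and RNA quality in the Nr3c1 differences were not tested. Over the 14 arrays its brighter probe set correlated with Tat at r = -0.50, Tdo2 at -0.52 and Aadat at -0.57. With Hpd, Abat and Sds r was 0.55, 0.65 and 0.03. These correlations carry no test, and a link between Nr3c1 and the 6 genes was not tested. Between deficient and standard the smallest p-values belonged to the transcription factor genes Cebpb at 0.26 ± 0.26 (SE), Srebf1 at -0.30 ± 0.36 and Cebpd at -0.24 ± 0.31 (adjusted p = 0.999 for each). The next after Nr3c1 for supplemented minus standard were Foxo1 at 0.31 ± 0.30 and Crem at -0.22 ± 0.24. For deficient minus supplemented they were Cebpb at 0.35 ± 0.26 and Cebpd at -0.34 ± 0.31. Limma adjusted p-values of these differences ran from 0.569 to 0.797. Of the 2 tested probe sets of Cebpd, only 1 had the stated direction in each of its comparisons. Of the 3 of Crem, 2 had the stated direction.

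The genes whose pattern over the 14 arrays was most like each of the 6 were taken as the 3 with the highest Pearson r among all tested genes, with r on values less their diet means given second. Such a choice of the highest values makes them high, they share arrays and RNA quality, and they carry no test. For Tat they were Pdcl (r = 0.85, then 0.89), the P450 gene Cyp2b15 (0.84, 0.78) and the glycerol channel gene Aqp9 (0.83, 0.79). For Tdo2 they were the peroxisomal fatty acid oxidation gene Ehhadh (0.87, 0.81), the plasma glycoprotein gene Apoh (0.85, 0.80) and the glycogenin gene Gyg1 (0.84, 0.86). Hpd was most like Gpatch2 (0.91, 0.90), Sos1 (0.85, 0.91) and Abcc8 (0.85, 0.88). Sds was most like the B cell receptor gene Cd79b (0.89, 0.90), the mitochondrial thiolase gene Acat1 (0.85, 0.85) and the translation initiation factor gene Eif5 (0.83, 0.87). Aadat was most like the mitochondrial fission gene Dnm1l (0.87, 0.87), the glucuronosyltransferase gene Ugt2b15 (0.82, 0.84) and the carnitine acyltransferase gene Crot (0.82, 0.84). Abat was most like Neurl2 (0.91, 0.88), the RNA-binding protein gene Rbm10 (0.84, 0.84) and the guanylate cyclase gene Gucy1b2 (0.84, 0.78). None of these 18 genes appeared for more than 1 of the 6.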

How the data were processed

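The authors deposited linear intensity per probe set, with a common trimmed mean over arrays, from an Affymetrix rat array with 8799 probe sets; targets came from about 5 µg of total RNA, per the labels. The software behind these signals is not given in the sources used here, and no detection calls were used. Array medians differed by up to 1.91 times, so the 8740 probe sets other than the 59 controls were quantile normalised. Signals were floored at the pooled 20th percentile (3.93 units) and log2 transformed, and probe sets with a mean above the pooled 40th percentile (14.3 units) were tested (5133 probe sets, 3073 genes). Fold changes of dim probe sets are understated. Limma 3.58.1 (R 4.3.3), with lmFit and then eBayes allowing a trend, fitted 1 model of the 3 diets over 14 arrays, with two-sided p-values adjusted by Benjamini-Hochberg over all tested probe sets. The fit was tested on simulated data. Array ratios were compared by exact permutation tests. Correlations used 100000 permutations (within diets for within-diet r) in scipy 1.17.1. Symbols came from the platform annotation, and 7006 probe sets had 1 symbol, 308 several and 1426 none. The probe set with the highest mean stood for a gene. Named from each list were the 3 genes with the smallest p per comparison. Array numbers in the titles run on between diets and pair no samples. Alternatives covered scaling, floor, filter, trend, array weights, covariates, other probe sets and left-out arrays. The number of arrays limits the precision. Members and lists were chosen with earlier results of these data known.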

Additional observations from a re-analysis of the deposited data

Results flagged for a closer look

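Of 42 groups of arrays (each probe set in each diet, and the RNA quality ratios), 1 had an array far from the others, where chance gives about 2.1. The dim Hpd probe set rc_AA866302_at stood at 7.32 on the log2 scale on deficient array 13, while the other 3 deficient arrays lay between 6.01 and 6.15. Its gap to the nearest array was 0.895 of the range of the 4 arrays. The brightest Hpd probe set was also highest on this array, as were 2 of the 3 Sds probe sets, and the array had the highest Gapdh 3'/5' ratio of the 14 (2.68 on the log2 scale). The part of RNA quality in this value was not tested.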

How the results depend on the processing

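The 18 differences of the 6 genes were recomputed under 504 alternatives in all: 472 kept their direction, 32 turned, and 0 were called, with the lowest adjusted p at 0.151 (array weights, Tdo2, deficient minus supplemented). Tat and Tdo2 kept their direction in every alternative run. Turned values, all uncalled, were as follows. With values as deposited Sds was at 0.013 for supplemented minus standard, and with arrays centred on their median Aadat was at 0.077 for deficient minus supplemented. With the Gapdh ratio as a covariate, supplemented minus standard was 0.19 for Hpd and -0.18 for Aadat, and deficient minus supplemented was -0.091 for Hpd and 0.31 for Aadat. With the beta-actin ratio, supplemented minus standard was 0.11 for Hpd and 0.40 for Sds, and deficient minus supplemented was -0.048 for Hpd, -0.18 for Sds and 0.071 for Aadat. With Cyp2c12 as a covariate Sds was at 0.49 for supplemented minus standard. Without supplemented array 5, standard array 10 and deficient array 13, deficient minus standard was -0.20 for Sds and -0.075 for Aadat, and supplemented minus standard was 0.035 for Hpd and -0.030 for Aadat. With other probe sets, Abat was at 0.027 and Aadat at -0.15 for deficient minus standard, and Sds was at 0.31 and 0.98 for supplemented minus standard and -0.052 for deficient minus supplemented. With 1 array left out, ranges that crossed 0 were -0.14 to 0.82 for Sds and -0.091 to 0.18 for Aadat (deficient minus standard), -0.12 to 0.052 for Hpd and -0.47 to 0.70 for Sds (supplemented minus standard), and -0.23 to 0.95 for Sds (deficient minus supplemented). Of the other ranges with 1 array left out, those that moved by over 1.5 times were, for deficient minus standard, -0.25 to -0.11 for Tat, -0.37 to -0.088 for Tdo2, 0.057 to 0.25 for Hpd and -0.16 to -0.039 for Abat. For supplemented minus standard they were 0.058 to 0.43 for Tat, 0.23 to 0.51 for Tdo2 and 0.077 to 0.39 for Aadat, and for deficient minus supplemented -0.61 to -0.24 for Tat, 0.11 to 0.28 for Hpd, -0.34 to -0.064 for Aadat and 0.13 to 0.25 for Abat. The within-diet SD of Sds was 2.34 with X13119cds_s_at. The cause of these shifts was not tested.

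Over all probe sets, deficient minus standard had 0 calls, and 1 with no filter. Supplemented minus standard had 0, and 1 with a floor at the 30th percentile, without the trend or with array weights, and 0 to 2 with 1 array left out. Deficient minus supplemented had 1, and 0 with values as deposited, a filter at the 60th percentile, the Gapdh, beta-actin or Cyp2c12 covariate, without the 3 arrays named above, or with only the 2 diets compared, 2 with no filter, and 0 to 4 with 1 array left out. The F-test had 1, and 0 in the same settings (it cannot be run on 2 diets), 2 with no filter, and 0 to 3 with 1 array left out. No paired analysis was possible because the array numbers run on from diet to diet and none is shared. Without detection calls it is unknown whether the dim probe sets lay above background.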
